A study of Homo sapiens with 8 samples.

Results

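Binding of 7 proteins at genes of the myeloid lineage was examined in a lymphoid cell, the cultured human pre-B leukaemia line 697, by chromatin immunoprecipitation followed by sequencing (ChIP-seq). The members are the peaks that overlap 8 windows of hg19 around SPI1, CEBPA, CEBPB, CEBPE, CSF1R, CSF3R, MPO and ITGAM. The windows were set by gene and position and not by height, though with earlier results of these data known. The members come to 51 of the 159806 deposited peaks, in windows of 350 kb in all. Peaks that overlapped, whatever their antibody, were joined into regions, which gave 25 member regions among 74123. The groups were antibodies: IKAROS and AIOLOS, related zinc-finger factors of lymphocytes; MTA2, Mi2 and HDAC2, subunits of the NuRD remodelling and deacetylase complex; OCT2, which binds the octamer; and OCAB, its B-cell coactivator. No treatment or genetic change is named in the labels, so all libraries share 1 cell line in its cultured state. Each antibody had 1 library, beside 1 library of input DNA, so intervals below cover counting error only and no p-value between proteins was computed. The peak lists hold no expression values, so neither the cell type nor the activity of the 8 genes could be checked against marker levels.

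Myeloid and B cells come from common progenitors, and the choice between them is set by a small circuit of transcription factors. SPI1 encodes PU.1, an ETS factor needed by both lineages, with high levels driving macrophage fate. CEBPA, CEBPB and CEBPE encode leucine-zipper C/EBP factors that act in granulocytes and macrophages, and forced C/EBP expression can turn B-lineage cells into macrophages. CSF1R and CSF3R encode the receptors for the macrophage and granulocyte colony-stimulating factors. MPO encodes myeloperoxidase of neutrophil granules, and ITGAM encodes CD11b, the integrin chain used to mark myeloid cells.

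IKAROS recognises sites around the core GGGAA, and OCT2 the octamer ATGCAAAT. Of the 8 genes, 6 matched the RefSeq promoter table (GRCh38.p14), with 9 starts in all and a window of 300 bases around each; SPI1 and MPO had no entry. GGGAA was searched on both strands and found in 6 of the 9 windows, against 65.0% of all 35116 promoter windows of the same length, and the octamer in 0 of the 9, against 1.77%. The 3 windows below are shown because the CEBPE promoter held the most GGGAA matches of the 9 windows (3) and CSF1R had the highest peaks. Capitals mark GGGAA or its complement TTCCC, and each sequence reads 5′ to 3′ on the strand of the gene.
CEBPE, chr14:23119206-23119505, minus strand: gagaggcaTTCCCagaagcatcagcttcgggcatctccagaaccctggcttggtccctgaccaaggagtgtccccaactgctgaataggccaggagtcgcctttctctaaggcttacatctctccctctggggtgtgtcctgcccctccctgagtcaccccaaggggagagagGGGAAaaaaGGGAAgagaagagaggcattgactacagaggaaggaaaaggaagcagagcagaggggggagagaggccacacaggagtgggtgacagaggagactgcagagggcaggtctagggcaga
CSF1R, upstream start, chr5:150113316-150113615, minus strand: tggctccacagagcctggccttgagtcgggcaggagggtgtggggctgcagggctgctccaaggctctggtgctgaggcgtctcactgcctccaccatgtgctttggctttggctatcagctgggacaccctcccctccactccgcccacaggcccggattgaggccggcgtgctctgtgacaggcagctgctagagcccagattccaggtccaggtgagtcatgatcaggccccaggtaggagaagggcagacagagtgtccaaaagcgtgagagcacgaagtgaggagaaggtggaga
CSF1R, downstream start, chr5:150086505-150086804, minus strand: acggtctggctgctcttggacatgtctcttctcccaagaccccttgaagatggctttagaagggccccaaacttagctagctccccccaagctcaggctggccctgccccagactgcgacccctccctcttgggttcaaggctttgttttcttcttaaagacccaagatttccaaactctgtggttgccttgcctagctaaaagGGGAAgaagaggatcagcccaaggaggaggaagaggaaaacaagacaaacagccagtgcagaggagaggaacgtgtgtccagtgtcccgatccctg
The upstream CSF1R start held no match and the downstream start held 1. The peaks are on hg19, another build, and were not placed on these windows, so the matches describe the letters of the promoters alone.

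Peak height is given as the deposited signal of tags per 10000000 tags of the library, with an exact Poisson 95% interval from its tags. Its place within its own list is given as the share of the list's peaks that are lower. The libraries of the 7 antibodies held 10.9 to 23.4 M tags, HDAC2 the fewest and IKAROS the most. The HDAC2 list reached up to a p-value of 9.50e-05 over input, while the other 6 lists ended at 8.92e-10 or lower, so by p-value the HDAC2 list admits peaks that the others do not. Its lowest height was 8.25, against 5.13 to 6.48 in the other lists. In this library, the one with the fewest tags, a given height rests on fewer tags, so these heights do not compare the limits. Its lowest fold over input was 4.03, with the lowest folds of the others no higher than 4.08.

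IKAROS and AIOLOS were found at 7 of the 8 myeloid loci, all but ITGAM, and MTA2 at each of the 8, while OCT2 was found at 1 and OCAB at none. The MTA2 count includes ITGAM by a peak of 13 tags, with 0.143% of the list lower. At CSF3R, IKAROS and AIOLOS had peaks only near the window edge next to MRPS15, and their gene was not determined. The windows held 1.46 peaks per 10 kb, against 0.542 over the 2944 Mb that the lists span. To give a scale, the genome was cut into 67280 tiles of 43.75 kb, the mean window length. IKAROS had 17 peaks in 7 of the 8 windows, while 40.4% of the tiles, and 87.9% of those with a peak of another list, held an IKAROS peak. AIOLOS had 15 peaks in 7 windows, against 31.1% of tiles and 68.6% of those with another list. MTA2 had 11 peaks in 8 windows, against 26.3% and 57.8%. Tiles include gene-free stretches, so they are a coarse scale for windows placed on genes.

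The remaining proteins had fewer peaks at these genes, and their lists are shorter: 16125 (HDAC2), 10303 (Mi2), 8129 (OCT2) and 4440 (OCAB) peaks, against 53948 for IKAROS. Against its own list, HDAC2 was not sparse, with 14.3 member peaks per Mb beside 5.47 (IKAROS 48.6 beside 18.3). For Mi2 these were 5.71 beside 3.50, for OCT2 2.86 beside 2.76 and for OCAB 0 beside 1.51. HDAC2 had 5 peaks in 4 windows, against 17.6% of tiles and 38.5% of those with another list. Mi2 had 2 peaks in 2 windows, against 12.7% and 26.2%. OCT2 had 1 peak in 1 window, against 10.1% and 22.0%, and OCAB had none in any window, against 5.92% and 12.5%. The OCT2 peak lay at CSF1R. With each window extended by 20 kb on both sides, OCAB had 3 peaks in 2 loci and OCT2 2 peaks in 2. Among peaks at least 8-fold over input, IKAROS kept 12 peaks in 5 loci, AIOLOS 8 in 5, MTA2 5 in 3 and HDAC2 2 in 2. ITGAM stayed among the MTA2 loci, with a peak 24.2-fold over an input listed at 0.5 tags. How much of each whole list passes this limit was not counted, and the median of the HDAC2 list was itself 7.33-fold.

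**Figure D1:**
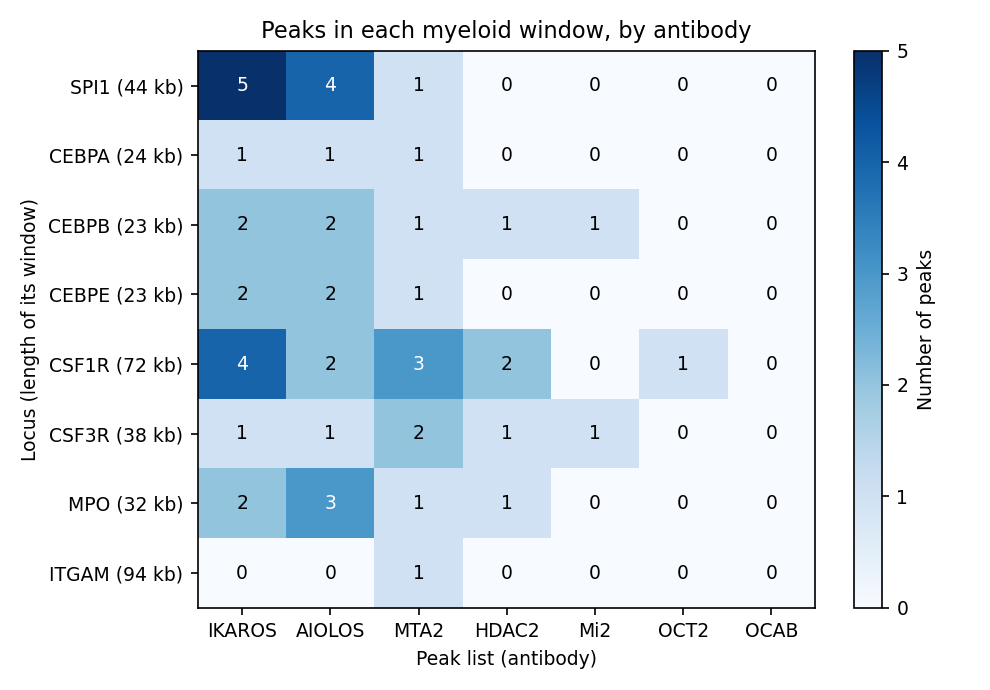
Number of deposited peaks of each antibody (columns) that overlap each window (rows, with the window length in kb), with the count printed in each cell. IKAROS runs from 0 at ITGAM to 5 at SPI1, MTA2 is present in all 8 rows, and the OCAB column is 0 throughout.

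Counted by region, the share of each protein at the myeloid loci did not differ detectably from that over all regions. IKAROS was in 17 of the 25 regions (68.0%, Wilson 95% interval 48.4 to 82.8), beside 72.8% of all merged regions. AIOLOS was in 15 (60.0%, 40.7 to 76.6), beside 51.4%, and MTA2 in 11 (44.0%, 26.7 to 62.9), beside 38.8%. HDAC2 was in 5 (20%, 8.86 to 39.1), beside 21.8%. Each of these intervals takes in the share over all regions. The intervals treat the 25 regions as independent, although they lie in 8 loci and some adjoin, so they do not measure variation among loci.

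The same held for the 3 rarer proteins. Mi2 was in 2 regions (8%, 2.22 to 25.0), beside 13.9%, OCT2 in 1 (4%, 0.710 to 19.5), beside 11.0%, and OCAB in 0 of 25 (0 to 13.3), beside 5.99%. IKAROS and AIOLOS together marked 13 regions (52.0%, 33.5 to 70.0, beside 44.4% of all), and 7 of the 25 (28.0%) held that pair and nothing else, beside 15.3% of all. Regions with 1 protein numbered 9 (36.0%, beside 44.7% of all) and those with 2 numbered 10 (40.0%, beside 23.4%). None held 6 or 7 proteins, which 2.31% and 0.650% of all regions did. For the pair-only share and for the number of proteins per region no interval was computed, so whether they differ was not tested.

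In the window at the gene for PU.1, binding was frequent but low. Higher peaks lay within 20 kb beyond its right edge, up to 55.2 for IKAROS and 72.2 for AIOLOS, as described at the end. The SPI1 window of 44 kb (chromosome 11, 47366000 to 47410000) held 10 peaks in 5 regions, numbered here along the chromosome as in the other windows: 5 of IKAROS, 4 of AIOLOS and 1 of MTA2. SPI1 region 1 (47381172 to 47381545) was the single one with MTA2: its heights were 22.7 for IKAROS (17.0 to 29.7), 19.3 for AIOLOS (13.1 to 27.4) and 11.4 for MTA2 (7.45 to 16.7). IKAROS and MTA2 centres there lay 6 bp apart. Regions 3 (47395430 to 47395780), 4 (47399423 to 47399816) and 5 (47404443 to 47404759) held IKAROS with AIOLOS alone.

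IKAROS heights at SPI1 were 18.8 in region 3, 13.3 in region 4, 12.8 in region 5 and 11.1 in region 2 (47382540 to 47382812), where IKAROS stood alone. The interval of region 1 overlapped those of regions 3, 4 and 5 and began just above the upper bound of region 2 (7.25 to 16.3). AIOLOS heights were 19.9 in region 4, 16.2 in region 3 and 11.2 in region 5. In region 4 the IKAROS peak stood 5.63-fold over input and the AIOLOS peak 6.05-fold, close to the lowest fold that the lists admit (4.01 and 4.08). Within their lists the SPI1 peaks ranked low to middling, with at most 54.7% of IKAROS peaks and 39.5% of AIOLOS peaks lower. HDAC2, Mi2, OCT2 and OCAB had no peak in the SPI1 window.

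**Figure D2:**
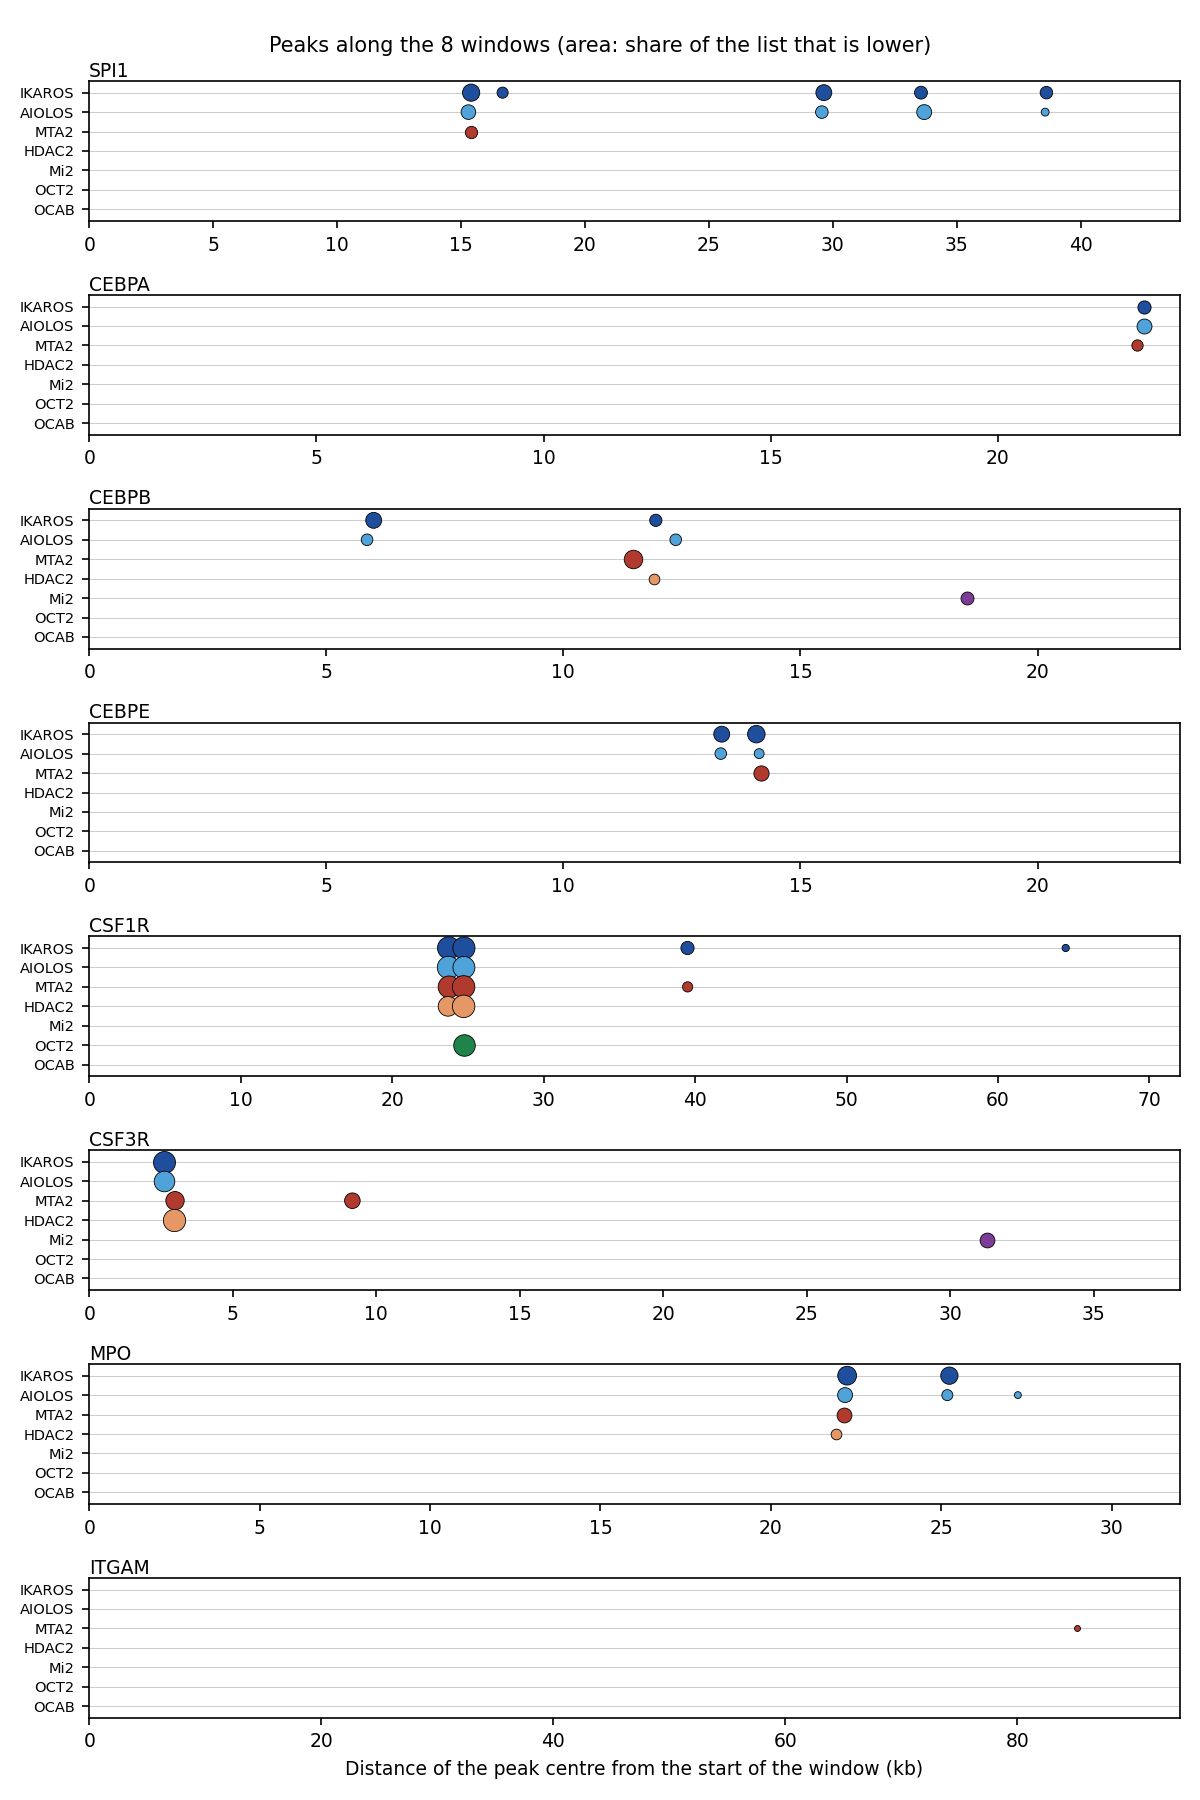
Position of every member peak, as the distance of its centre from the start of the window in kb (x axis, its own scale in each panel), by antibody (rows) for the 8 loci (panels). Marker area grows with the share of the antibody's own list that is lower. The large markers are the paired regions at CSF1R near 24 kb and the adjoining regions at CSF3R near 3 kb, while ITGAM shows 1 small MTA2 marker.

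CEBPA and CEBPE each carried IKAROS, AIOLOS and MTA2, and CEBPB carried these with HDAC2 and Mi2. At the 3 C/EBP genes the peak that ranked highest within its own list was MTA2 at CEBPB, higher than 64.9% of that list. By height itself the top was IKAROS at CEBPE, at 24.0, higher than 57.1% of the IKAROS list. CEBPA encodes the founding factor of the granulocyte programme, and its window (chromosome 19, 33780000 to 33804000) held a single region near its right edge, at 33802946 to 33803354. Heights in that region were 19.9 for AIOLOS (13.6 to 28.1), 13.7 for IKAROS (9.37 to 19.3) and 10.5 for MTA2 (6.73 to 15.6). The IKAROS and AIOLOS centres lay 6 bp apart, and MTA2 lay 147 bp from IKAROS. The rest of the CEBPA window was free of peaks in all 7 lists.

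CEBPB encodes the C/EBP factor of activated macrophages, and its window (chromosome 20, 48797000 to 48820000) held peaks of 5 proteins that mostly did not coincide. Region 1 (48802736 to 48803140) paired IKAROS (height 18.8) with AIOLOS (14.9), their centres 140 bp apart, the widest such gap in the 13 regions that hold both. MTA2 stood alone in region 2 (48808340 to 48808590) with a height of 20.1 (14.7 to 26.8) and 14.3-fold over input. Gaps of 157 and 162 bp separated it from region 3 (48808747 to 48809081; IKAROS 12.4, HDAC2 11.0) and region 3 from region 4 (48809243 to 48809499; AIOLOS 14.9). MTA2, HDAC2, IKAROS and AIOLOS of this stretch thus lay in 3 adjoining regions. With peaks up to 500 bp apart merged, a setting added after the data were seen, the member regions fell from 25 to 21.

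CEBPE acts late in granulocyte maturation. Its window (chromosome 14, 23576000 to 23599000) held 2 neighbouring regions 461 bp apart, both with IKAROS and AIOLOS. In region 1 (23589190 to 23589472) the heights were 18.8 for IKAROS and 14.9 for AIOLOS. In region 2 (23589933 to 23590295) they were 24.0 for IKAROS (18.1 to 31.2), 13.1 for AIOLOS (8.11 to 20) and 14.4 for MTA2 (9.91 to 20.2). The 2 regions did not differ beyond counting error for IKAROS or AIOLOS.

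CSF1R, the receptor of macrophage colony-stimulating factor, carried the highest IKAROS, AIOLOS and MTA2 peaks of the 8 loci, and the intervals of these peaks lay clear of those at the other loci. Its window (chromosome 5, 149422000 to 149494000) held 12 peaks in 4 regions. Regions 1 (149445528 to 149445881) and 2 (149446561 to 149446879) lay 680 bp apart and held 4 and 5 proteins, and the other member regions 1 to 4. IKAROS reached a height of 180.5 in region 1 (164 to 199) and 109.5 in region 2 (96.5 to 124), higher than 98.4% and 95.3% of its list. AIOLOS reached 135.1 (118 to 154) and 89.6 (75.6 to 105), higher than 97.3% and 93.5% of its list. Over input, the IKAROS peaks stood 47.9-fold and 33.2-fold, with 8 and 7 input tags as listed.

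Of the NuRD subunits, MTA2 and HDAC2 had the opposite order at CSF1R, and Mi2 had no peak in the window. MTA2 measured 41.6 in region 1 (33.7 to 50.9) and 72.7 in region 2 (62.1 to 84.6). HDAC2 measured 19.2 (11.9 to 29.3) and 41.2 (30.1 to 55.1), and only in region 2 was an OCT2 peak present, with a height of 30.6 (23.1 to 39.7). Region 1 took 62.2% of the pair's tags in the IKAROS library (exact 95% interval 58.5 to 65.9) and 60.3% in the AIOLOS library (55.1 to 65.4). It took 36.4% in the MTA2 library (30.6 to 42.6) and 31.8% in the HDAC2 library (20.9 to 44.4). No interval of IKAROS or AIOLOS overlapped one of MTA2 or HDAC2. This comparison of 4 libraries has no replicate behind it and was made after the heights were seen.

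**Figure D3:**
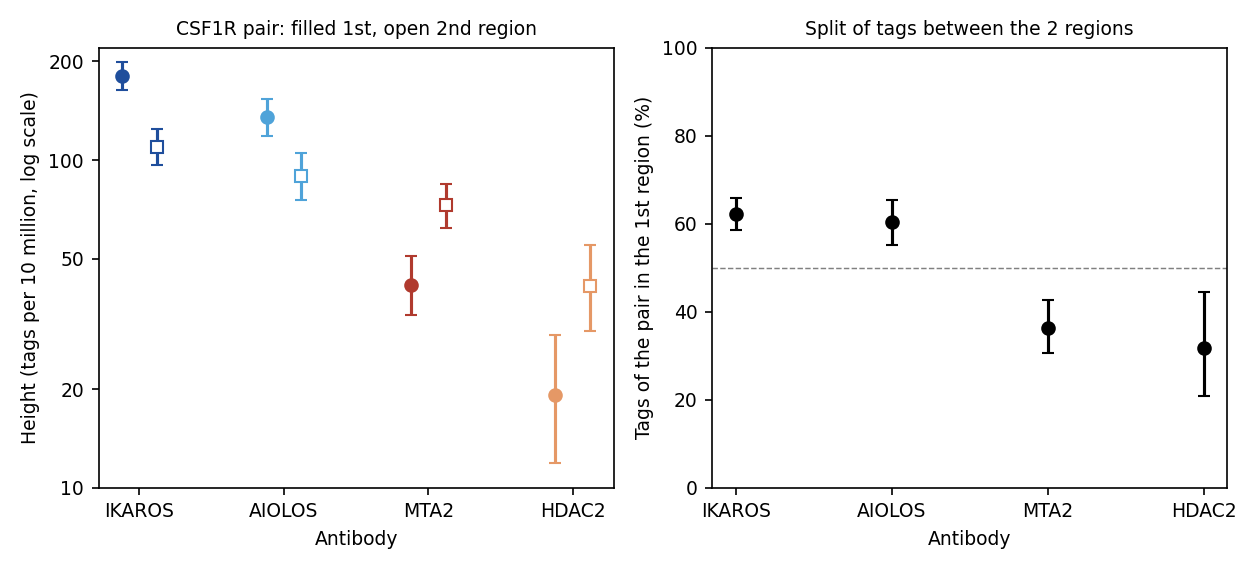
Left, heights in tags per 10000000 (log axis) of 4 antibodies in CSF1R region 1 (filled circles) and region 2 (open squares), with exact Poisson 95% intervals. Right, the share of the pair's tags that lies in region 1, in percent, with exact binomial 95% intervals: IKAROS and AIOLOS sit at 62.2% and 60.3%, MTA2 and HDAC2 at 36.4% and 31.8%.

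Centres in CSF1R region 2 were tightly packed, with IKAROS 3 bp from AIOLOS, 17 bp from MTA2, and MTA2 4 bp from HDAC2. The HDAC2 peak of region 1 stood 4.27-fold over input, near the limit of 4 that the header of that list states. Region 3 (149461362 to 149461636) held IKAROS (13.7) and MTA2 (9.63), and region 4 (149486335 to 149486607) IKAROS alone at 7.27, higher than 3.83% of its list. CSF1R thus held both the highest and the lowest IKAROS peak of the 8 loci. Of the tags in member peaks, CSF1R took 49.7% for IKAROS, 48.5% for AIOLOS, 52.8% for MTA2 and 52.0% for HDAC2.

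CSF3R, the granulocyte colony-stimulating factor receptor, had the next highest IKAROS, AIOLOS and HDAC2 peaks after CSF1R, while for MTA2 its highest peak (19.7) stood beside that of CEBPB (20.1), with overlapping intervals. In its window (chromosome 1, 36921000 to 36959000) the highest peaks lay at the left edge, where RefSeq places MRPS15, a mitochondrial ribosomal protein gene, next to CSF3R. Region 1 (36923480 to 36923752) held IKAROS at 94.9 (82.8 to 108) and AIOLOS at 49.8 (39.7 to 61.7), higher than 93.8% and 81.5% of their lists. Only 42 bp further, region 2 (36923794 to 36924113) held HDAC2 at 33.9 (23.9 to 46.7) and MTA2 at 19.7 (14.4 to 26.4), without an IKAROS or AIOLOS peak. Whether these regions lie in CSF3R or MRPS15 was not determined, since no annotation of hg19 was at hand.

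The other CSF3R regions each held 1 protein. MTA2 stood alone in region 3 (36930046 to 36930296) at 14.9, and Mi2 alone in region 4 (36952119 to 36952465) at 13.5 (8.74 to 19.9). Region 4 and CEBPB region 5 (48815348 to 48815694, Mi2 height 12.4, 7.86 to 18.6) were the 2 Mi2 regions of the 8 loci. Neither had a peak of MTA2 or HDAC2, the other NuRD subunits assayed, whereas 41.7% of all Mi2 regions of the series held MTA2. At 0 of 2 the Wilson interval ran up to 65.8%, so the difference was not detectable.

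MPO, the neutrophil granule enzyme, had 7 peaks in 3 regions between 21.9 and 27.25 kb into its window (chromosome 17, 56337000 to 56369000). Region 1 (56358741 to 56359375) held IKAROS at 30.4 (23.7 to 38.3), AIOLOS at 19.9 (13.6 to 28.1), MTA2 at 14.0 (9.58 to 19.8) and HDAC2 at 11.0 (5.68 to 19.2). This IKAROS peak was the highest outside the CSF1R and CSF3R loci, higher than 66.6% of its list. HDAC2 rested on 12 tags and its centre lay 264 bp from that of MTA2, against 4 to 69 bp in the other 3 regions that hold both. Region 2 (56362052 to 56362377) held IKAROS at 23.1 and AIOLOS at 14.3, and region 3 (56364123 to 56364379) AIOLOS alone at 9.96, the lowest AIOLOS peak of the 8 loci.

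ITGAM, the gene for CD11b, was nearly empty. Its window was the longest (chromosome 16, 31261000 to 31355000, 94 kb) and held 1 peak, of MTA2, at 31346041 to 31346291. The peak had a height of 5.69 (3.03 to 9.73) from 13 tags, with 0.143% of the MTA2 list lower, and the input there is listed at 0.5 tags. IKAROS and AIOLOS had no peak in the window, while 56.6% of genome tiles of that length held an IKAROS peak and 60.9% a peak of any list. Peak density was thus 0.106 per 10 kb at ITGAM, against 1.25 at CEBPA to 3.04 at CEBPB among the other 7 loci.

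**Figure D4:**
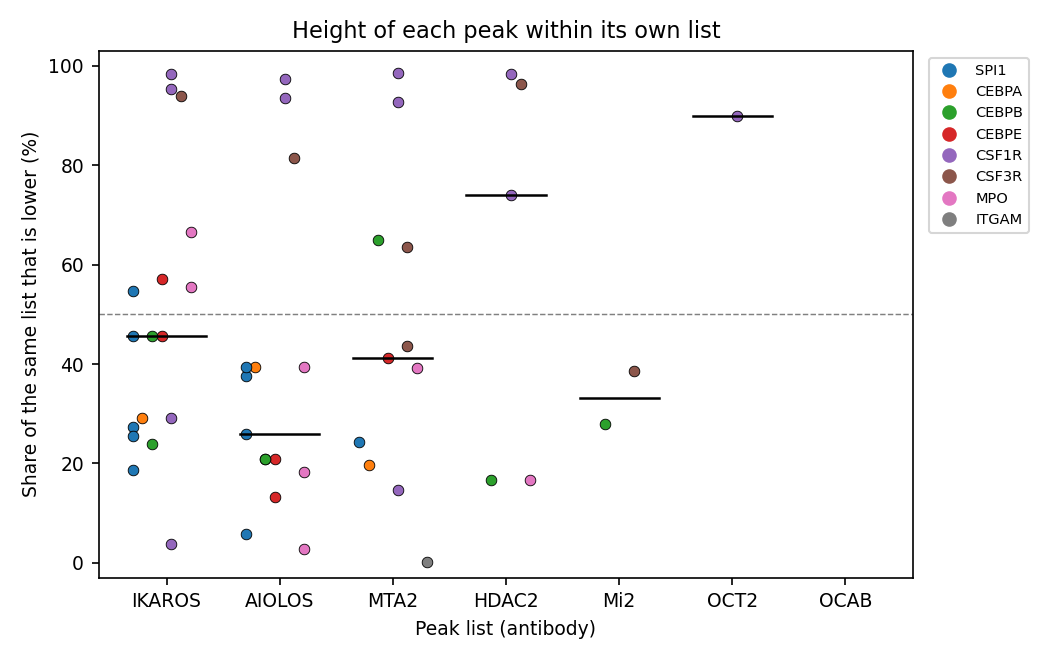
Each point is a member peak, coloured by locus and placed by the share of its own antibody's list that is lower (y axis, percent), with the median of each antibody as a black bar and 50% as a dashed line. Points above 80% are all from CSF1R or CSF3R, and the AIOLOS median lies at 25.9%.

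The highest IKAROS, AIOLOS and HDAC2 peaks lay in 4 regions. These regions were picked from the same heights, so the lower range of the remaining peaks follows in part from the choice. CSF1R regions 1 and 2 and CSF3R regions 1 and 2 held 3 of the 17 IKAROS peaks, and the other 14 ranged from 7.27 to 30.4. The other 12 AIOLOS peaks ranged from 9.96 to 19.9, below the AIOLOS list median of 23.7, and the other 8 MTA2 peaks from 5.69 to 20.1. For MTA2 the split was not clean, since CSF3R region 2 measured 19.7 and CEBPB region 2, outside the 4, measured 20.1. The median member peak had a height of 18.8 for IKAROS (list median 20.5), 16.2 for AIOLOS (23.7) and 14.4 for MTA2 (16.2). Of the AIOLOS member peaks, 3 of 15 reached the median of their list, as did 7 of 17 for IKAROS and 4 of 11 for MTA2. For HDAC2 3 of 5 did, with a member median of 19.2 against 14.7, and all 3 lay in the 4 regions named above.

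The median member peak stood 14.5-fold over input for IKAROS (list 15.2), 10.6-fold for AIOLOS (16.5), 7.44-fold for MTA2 (11.6) and 5.50-fold for HDAC2 (7.33). In the order of IKAROS heights, CSF1R region 1 stood clear of CSF1R region 2, whose interval overlapped that of CSF3R region 1. CSF3R region 1 in turn stood clear of MPO region 1. From MPO region 1 down to CSF1R region 4, each interval overlapped that of the next peak. For AIOLOS the first 3 were separate from each other and from the remaining 12, among which neighbours in the order did not differ beyond counting error.

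**Figure D5:**
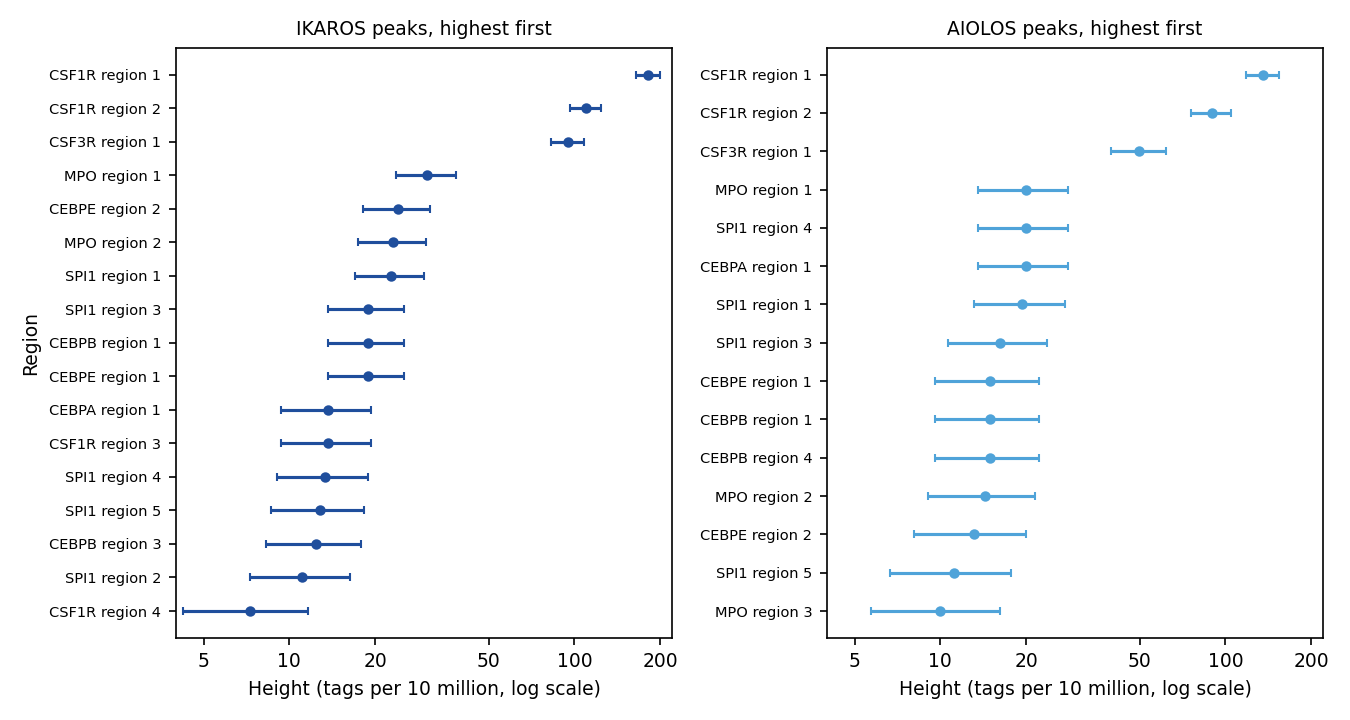
Heights of all IKAROS (left) and AIOLOS (right) member peaks in tags per 10000000 (log axis), highest first, with exact Poisson 95% intervals. CSF1R regions 1 and 2 and CSF3R region 1 lead both panels, and the remaining intervals overlap from one peak to the next.

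IKAROS and AIOLOS mostly occurred together at the myeloid loci. AIOLOS regions held IKAROS in 13 of 15 cases (86.7%, 62.1 to 96.3), beside 86.5% of all AIOLOS regions, and the exceptions were CEBPB region 4 and MPO region 3. IKAROS regions held AIOLOS in 13 of 17 (76.5%, 52.7 to 90.4), beside 61.1%. MTA2 regions held IKAROS in 7 of 11 (63.6%, 35.4 to 84.8), beside 77.0%, the exceptions being CEBPB region 2, CSF3R regions 2 and 3 and the ITGAM region. HDAC2 regions held MTA2 in 4 of 5 (80.0%, 37.6 to 96.4), beside 66.2%. All of these intervals take in the share over the series.

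Centre distances varied widely among the members. IKAROS and AIOLOS centres lay a median of 59 bp apart in the 13 member regions with both, within a range of 3 to 140 bp, beside a median of 33 bp over 32931 regions of the series. MTA2 and IKAROS centres lay a median of 17 bp apart in 7 member regions (6 to 147 bp), beside 42 bp over all. The closest IKAROS and AIOLOS pairs were at CSF1R region 2, CEBPA region 1 and CSF3R region 1, at 3, 6 and 7 bp. No member region held MTA2, HDAC2 and Mi2 together, as 3.92% of all regions did.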

How the data were processed

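Each of 7 antibodies and the input had 1 ChIP-seq library of 697 cells. Per the labels' protocols, libraries were amplified over 15 PCR cycles. With 1 library per antibody, intervals cover counting error only, and any copies made by PCR are not allowed for. HOMER 4.9.1, Bowtie2 2.3.2.2 and CASAVA (1.8.2, or 1.4 with HDAC2) are named in the submitters' processing notes, with build hg19. Per the file headers, the HDAC2 list required 4-fold over input and p-values up to 0.0001; for the remaining 6, how peaks were called is not given in the sources used here.

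Peak height is the signal the authors deposited, in tags per 10000000. Tag counts in peaks are deposited for 5 lists. For IKAROS and MTA2 the deposited tags are scaled to the input, so tags were recovered from heights (100% of heights under 10 came within 0.05 of a whole tag). Fold over input is the authors' deposited ratio. The p-values over input are those the authors deposited. HOMER's deposited fraction of tags in their expected places around a peak, and its deposited score, do not enter the text.

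Windows were read from the rule for the members, and a peak belonged to a window with at least 1 bp of overlap. Members were chosen with earlier results of these data known. The rule for naming took all 8 loci and in each the region with the most proteins (ties by mean rank of height) and that with the highest IKAROS peak, the highest member peak of every list, and every OCAB, OCT2 or Mi2 region up to 10 per protein; the remaining member regions were described outside it. Shares have Wilson 95% intervals. Gene neighbours and promoters came from RefSeq tables on GRCh38, so peaks were not assigned to parts of genes, and no further list of genes was counted. Overlap and depth code was tested on simulated data. Python 3.11.15, numpy 2.4.6, pandas 2.3.3, scipy 1.17.1 and matplotlib 3.10.9 were used.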

Additional observations from a re-analysis of the deposited data

How the results depend on the processing

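With 22 results and 154 recomputed values, 117 stayed within 1.5 times the count or within the Wilson interval of the share, and 37 did not. No value moved when a peak had to have its centre in the window, or when regions were formed without the HDAC2 list. No member peak crosses a window edge, and every HDAC2 region holds another protein, so these settings could not move a value. None moved either when regions were formed by peak centres within 100 bp. The same held when peaks within 500 bp were merged, a setting added after the data were seen. At 8-fold over input or more, AIOLOS fell to 8 peaks, MTA2 to 5 peaks in 3 loci (26.3% of regions) and HDAC2 to 2 peaks in 2 loci. IKAROS fell to 12 peaks, and the loci with IKAROS and with AIOLOS from 7 to 5 each, all within 1.5 times. At a common p-value limit of 1e-10 HDAC2 fell to 2 peaks in 2 loci (8% of regions). With the 4000 highest peaks of each list, 4 regions were left, with 3 IKAROS peaks in 2 loci, 2 AIOLOS peaks in 1 locus, 2 MTA2 peaks in 1 locus, 2 HDAC2 peaks in 2 loci (50% of regions), 0 Mi2 peaks in 0 loci (0% of regions) and OCT2 in 25.0% of regions. Windows extended by 20 kb on both sides held 43 regions, with 30 IKAROS, 23 AIOLOS, 20 MTA2, 9 HDAC2 and 5 Mi2 peaks, 2 OCT2 peaks in 2 loci and 3 OCAB peaks in 2 loci. Without the CSF1R window, a setting added after the data were seen, HDAC2 had 3 peaks and OCT2 had 0 peaks in 0 loci (0% of regions). Stricter limits, shorter lists and fewer windows keep fewer peaks by construction, and wider windows more; no other cause was tested. No paired analysis was possible because each antibody has 1 library. Depth limits what can be seen: the fewest tags in a member peak were 12, and a protein without a peak may still bind below the limits of its list.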

Other observations

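The flanks of the windows held binding that the windows themselves did not. Just beyond the right edge of the SPI1 window, between 47411603 and 47429738 on chromosome 11, lay 19 further peaks, and 1 Mi2 peak lay beyond the left edge. IKAROS reached 55.2 at 47421387 to 47421659 and 54.7 at 47429426 to 47429698, where it measured at most 22.7 inside the window. AIOLOS reached 63.5 at 47421483 to 47421739 and 72.2 at 47429482 to 47429738, against 19.9 inside. Mi2 and HDAC2, which had no peak in the SPI1 window, were found at 47421358 to 47421704 (Mi2, 30.3) and 47421322 to 47421640 (HDAC2, 18.3). OCAB, with no peak in any of the 8 windows, had 2 here, of heights 20.5 and 27.3. A smaller group at 47416849 to 47417212 held MTA2 (26.3), AIOLOS (31.7) and IKAROS (24.0). PU.1 is known to have a distal upstream control element, and RefSeq lists SLC39A13 as the next gene on that side; which of them these peaks belong to was not determined on hg19.

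At CEBPE, IKAROS and AIOLOS reached higher outside the window than within it, and MTA2 did not (14.0 and 13.6 outside, 14.4 within). An OCAB peak of height 78.1, higher than 96.3% of its list and 82.9-fold over input, lay at 23564403 to 23564669 on chromosome 14, beside IKAROS at 44.5 and AIOLOS at 45.4. An OCT2 peak of height 7.09, with 0.935% of its list lower, lay at 23564956 to 23565230 and did not overlap the OCAB peak. In the flank of CSF3R, IKAROS measured 72.3 and AIOLOS 44.2 at the region that starts at 36912023 on chromosome 1, and in that of CEBPB IKAROS measured 55.2 at 48782541 to 48782813 on chromosome 20. The 20 kb on either side of ITGAM added no peak of any list, so 1 MTA2 peak remained for the widened window.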
